A study of Rattus norvegicus with 6 samples.

Results

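A set of 9 genes that load, clear and recycle glutamate was read in the neural retina of rats: 3 vesicular glutamate loaders (Slc17a7, Slc17a6 and Slc17a8), 4 plasma membrane uptake carriers (Slc1a3, Slc1a2, Slc1a7 and Slc1a1) and 2 enzymes (Glul and Glud1). They were taken as every row of the deposited gene table whose symbol equals one of the names, ignoring case. Each of the 9 names matched a single row, so the genes make up 9 of the 19623 symbols and of the 26406 rows in the table. The series holds 6 retinal RNA samples in 3 groups of 2, all collected at postnatal day 60. One group is Long Evans rats, the pigmented wild-type strain, with sham surgery. The second is Royal College of Surgeons (RCS) rats, whose photoreceptors degenerate, with the same sham surgery. The third is RCS rats that received human neural progenitor cells (hNPCs) under the retina. Surgery in every group was at postnatal day 21, the sham eyes getting only the medium that carries the cells. Only the side of the retina with the graft was taken, or its counterpart in sham eyes. The labels do not say whether samples are separate animals or pools.

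The table gives 1 value per gene, in FPKM (fragment counts corrected for how long each transcript is and how deep the sequencing was), each between a deposited lower and upper bound, and no column is tied to a sample or a group. The levels below therefore compare genes with one another inside 1 table and say nothing of strain or graft, and no replicate error, fold change between groups or p-value could be given. Values of single genes are printed with the authors' bounds in brackets, whose confidence level is not given in the sources used here. If each bound lies 2 standard errors from its value and holds counting error alone, the number of fragments behind a gene follows, and this number is given below as implied fragments. Ratios of 2 genes carry a computed 95% counting interval under the same reading. That reading is an assumption for every member, and no interval here covers the spread between animals.

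Glutamate is the transmitter of photoreceptors, bipolar cells and ganglion cells. It is packed into synaptic vesicles by proton-driven carriers of the SLC17 family, which determine that a neuron is glutamatergic. After release it is cleared by sodium-driven carriers of the SLC1 family, most of it into Müller glia, which span the depth of the retina. There glutamine synthetase, the product of Glul, joins it to ammonia, and the resulting glutamine is passed back to neurons, which make glutamate from it again. Glutamate dehydrogenase, the product of Glud1, opens a route from glutamate into the mitochondrial citric acid cycle.

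Markers of the retina's neurons and of Müller glia were all above 1 FPKM in the table: 4 of 4 for rods, 3 of 3 for cones, 5 of 5 for bipolar cells, 4 of 4 for amacrine cells, 3 of 3 for horizontal cells, 5 of 5 for ganglion cells and 4 of 4 for Müller glia. Most symbols of the table passed that level too, by the share given with the members below. The microglia and endothelium lists likewise passed in full, with 3 of 3 each, so these counts alone do not show a cell type. Among the lists of neurons and Müller glia, summed marker levels ran from 26.7 FPKM for horizontal cells to 9459 FPKM for rods. Most of the horizontal cell sum was Calb1, at 23.7 FPKM. Onecut1 was at 1.83 FPKM and Lhx1 at 1.19 FPKM, with bounds (0.716 to 1.67) that include 1 FPKM. Of the 3 astrocyte markers 1 reached 1 FPKM, Gfap at 8.45 FPKM, while Aldh1l1 stood at 0.128 FPKM and Pax2 was listed at 0. Pigment epithelium markers were also present, with Rpe65 at 20.7 FPKM and Ttr at 152 FPKM but Best1 at 0.270 FPKM, and their part in the members' levels was not tested. In RNA from whole tissue, fewer cells of a type and less RNA per cell cannot be told apart.

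The upstream sequences of the vesicular loaders and of Glul are shown first, because these genes hold the top and the bottom of the range described below. They are the 250 bases before the annotated start in RefSeq, build GRCr8, read 5′ to 3′ on the gene's strand; RefSeq windows were found for 8 of the 9 members, and Slc1a1 is named only. Capitals mark matches, on either strand, to 4 short motifs: the GC box GGGCGG, the TATA box TATAAA, the CCAAT box CCAAT and TAATCC, the core bound by the photoreceptor homeodomain factors CRX and OTX2. None of the 4 motifs contains another, so 1 site cannot count for 2 of them. The windows lie at chr1:104785955-104786204 (plus strand) for Slc17a7, chr1:110348197-110348446 (plus strand) for Slc17a6, chr7:25935411-25935660 (minus strand) for Slc17a8 and chr13:68575816-68576065 (plus strand) for Glul, the second of its 2 annotated starts.
Slc17a7: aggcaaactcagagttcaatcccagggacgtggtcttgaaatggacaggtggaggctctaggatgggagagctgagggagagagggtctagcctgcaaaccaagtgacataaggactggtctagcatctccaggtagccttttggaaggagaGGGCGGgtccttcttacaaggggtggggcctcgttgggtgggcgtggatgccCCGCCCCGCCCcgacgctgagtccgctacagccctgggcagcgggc
Slc17a6: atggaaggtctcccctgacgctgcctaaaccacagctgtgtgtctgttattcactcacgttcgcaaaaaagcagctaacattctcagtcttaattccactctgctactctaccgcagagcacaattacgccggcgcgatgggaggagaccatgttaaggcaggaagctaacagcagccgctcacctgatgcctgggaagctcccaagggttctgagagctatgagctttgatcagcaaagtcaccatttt
Slc17a8: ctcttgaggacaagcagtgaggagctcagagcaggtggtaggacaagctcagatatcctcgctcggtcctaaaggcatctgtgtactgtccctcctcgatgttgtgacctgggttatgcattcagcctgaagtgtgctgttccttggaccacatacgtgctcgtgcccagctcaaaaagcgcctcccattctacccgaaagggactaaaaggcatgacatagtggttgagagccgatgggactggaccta
Glul: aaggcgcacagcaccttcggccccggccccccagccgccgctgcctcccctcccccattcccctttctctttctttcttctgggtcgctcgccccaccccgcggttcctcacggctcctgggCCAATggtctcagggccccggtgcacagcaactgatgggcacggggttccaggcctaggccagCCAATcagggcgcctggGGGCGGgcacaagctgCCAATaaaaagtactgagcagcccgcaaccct

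The window of Slc17a7 held 3 GC boxes, at 98, 46 and 41 bases before the start, the last 2 overlapping by a base. Neither Slc17a6 nor Slc17a8 had a match to any of the 4 motifs. The second Glul start had 1 GC box, 48 bases before it, and 3 CCAAT boxes at 128, 65 and 32 bases. The first Glul start, not printed, had 1 of each. Glud1, also not printed, had 2 GC boxes, 137 and 17 bases before its start. Slc1a7 had 1 CCAAT box at 159 bases, and the starts of Slc1a3 had no match. Matches were not tested against the levels. Over all 33469 RefSeq windows of this length, 30.5% held a GC box, 34.0% a CCAAT box, 12.9% the TATA box and 6.34% the TAATCC core. Within the windows of the 8 members, TATAAA was not found, and TAATCC was found once, 69 bases before the first start of Slc1a2. The number of CG pairs per window had a median of 5 over all windows. It was 45 in Glud1, 33 at the first start of Slc1a2 but 2 at its second, 13 and 15 at the starts of Glul, 9 to 10 at those of Slc1a3, 10 in Slc17a7, 9 in Slc17a6, 8 in Slc17a8 and 6 in Slc1a7. A match is a string of letters, not a measured binding site, and the windows were not linked to which start these libraries used.

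Across the 9 genes the level ran over 569-fold, from Slc17a8 to Glul. All 9 stood above 1 FPKM, though the bounds of Slc17a8 (0.740 to 1.43) include that level. Of all symbols, 61.0% reached 1 FPKM, which is also the background for the counts of markers and pathway genes. The members' median was 35.4 FPKM, against 3.17 FPKM over all symbols and 9.21 FPKM over the symbols at 1 FPKM or more. Together the 9 genes took 0.368% of the summed FPKM. No other row of the table overlapped any of the 9, and all 9 carry the status OK. In order the genes were Glul, Slc17a7, Slc1a3, Slc1a2, Glud1, Slc1a7, Slc17a6, Slc1a1 and Slc17a8. Of the 36 pairs, 1 had a counting interval that included a ratio of 1: Glud1 and Slc1a7, neighbours at 35.4 and 33.7 FPKM, with a ratio of 1.05 (0.947 to 1.17). Every other neighbouring pair had bounds that did not overlap.

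**Figure D1:**
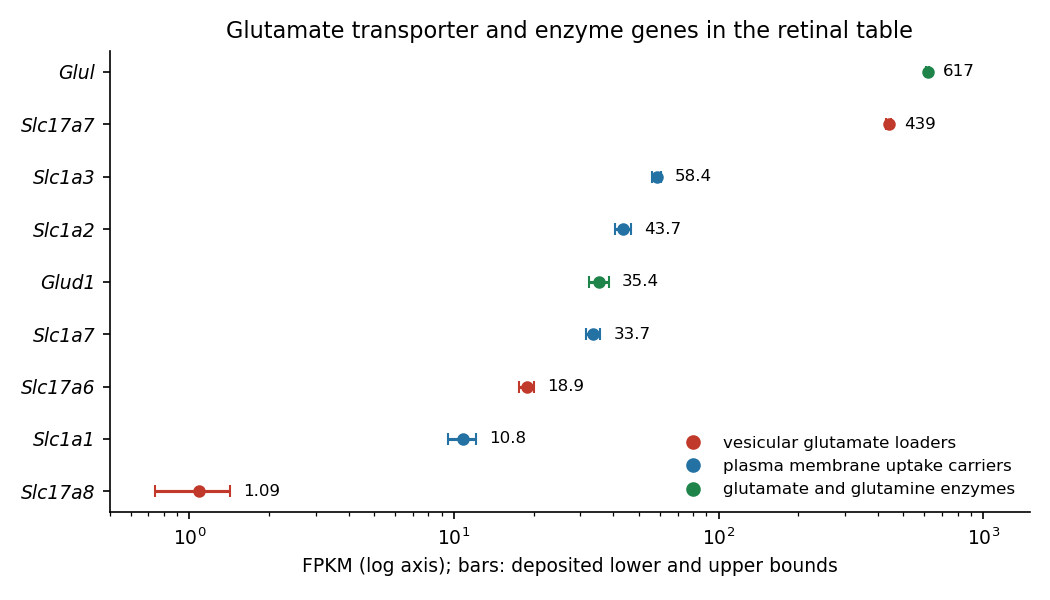
FPKM of the 9 genes on a log axis, coloured by role; points are the deposited values and bars the authors' lower and upper bounds. Glul (617) and Slc17a7 (439) stand apart from the 6 genes between 10.8 and 58.4, and Slc17a8 (1.09) lies below all of them.

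Among the vesicular loaders, 1 gene carried nearly the whole sum. Slc17a7 encodes VGLUT1, the loader of photoreceptor and bipolar cell terminals. Its row (ENSRNOG00000020650, chromosome 1, 102226198 to 102238038 in build rn5) was listed at 439 FPKM (431 to 448), on an implied 11635 fragments. Slc17a6 encodes VGLUT2, which in the retina is best known from ganglion cells. Its row (ENSRNOG00000016147, chromosome 1, 108040510 to 108080510) stood at 18.9 FPKM (17.6 to 20.2), an implied 875 fragments. Slc17a8 encodes VGLUT3, the loader of a small class of amacrine cells, and its row (ENSRNOG00000007581, chromosome 7, 30314801 to 30371888) was the lowest of the 9 at 1.09 FPKM (0.740 to 1.43), on an implied 40 fragments. Slc17a7 made up 95.7% of the summed level of the 3 loaders, Slc17a6 4.11% and Slc17a8 0.236%. Slc17a7 stood 23.3 times above Slc17a6 (21.7 to 24.9) and 405 times above Slc17a8 (296 to 553). Between the minor loaders the ratio was 17.4 (12.6 to 23.9).

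The other genes of the SLC17 family, best known as carriers of phosphate, urate, sialic acid or nucleotides, were low. Of 6, only Slc17a5, the lysosomal sialic acid carrier, reached 1 FPKM, at 2.06 FPKM (1.54 to 2.58). Slc17a4 was at 0.711 FPKM, Slc17a9, the vesicular nucleotide transporter, at 0.548 FPKM, Slc17a3 at 0.0391 FPKM and Slc17a2 at 0.0310 FPKM, and Slc17a1 was listed at 0. Slc17a8 thus stood below Slc17a5, with a ratio of 0.527 (0.354 to 0.785).

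The uptake carriers were spread far less widely than the loaders: 5.40-fold (4.76 to 6.12) from the highest to the lowest, all 4 between 10.8 and 58.4 FPKM. Slc1a3 encodes GLAST (EAAT1), the main carrier of Müller glia. Its row (ENSRNOG00000016163, chromosome 2, 79348444 to 79422645) stood at 58.4 FPKM (55.8 to 60.9), an implied 2147 fragments. Slc1a2, for GLT-1 (EAAT2), known in the retina from cones and bipolar cells, was at 43.7 FPKM (40.7 to 46.8; ENSRNOG00000005479, chromosome 3, 99282852 to 99309441; an implied 809 fragments). Slc1a7 encodes EAAT5, a carrier of photoreceptor and bipolar terminals that passes chloride more readily than it moves glutamate. It was at 33.7 FPKM (31.6 to 35.8; ENSRNOG00000011644, chromosome 5, 131418723 to 131463643; an implied 1035 fragments). Slc1a1, for EAAC1 (EAAT3), a neuronal carrier of amacrine, horizontal and ganglion cells, was the lowest at 10.8 FPKM (9.51 to 12.1; ENSRNOG00000014816, chromosome 1, 254195389 to 254275293; an implied 275 fragments).

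No carrier held a majority of the uptake sum: the shares were 39.8% for Slc1a3, 29.8% for Slc1a2, 23.0% for Slc1a7 and 7.37% for Slc1a1. Slc1a3 exceeded Slc1a2 1.33-fold (1.23 to 1.45) and Slc1a7 1.73-fold (1.61 to 1.87). Slc1a2 exceeded Slc1a7 by 1.30-fold (1.18 to 1.42) on the FPKM scale, but by implied fragments, which are not divided by length, the order turned and the ratio was 0.781. The remaining SLC1 genes were below all 4. Slc1a4, a carrier of neutral amino acids such as serine, was at 5.06 FPKM (4.35 to 5.78), Slc1a5, which exchanges glutamine and other neutral amino acids, at 0.452 FPKM (0.192 to 0.711), and Slc1a6, for the cerebellar glutamate carrier EAAT4, at 0.299 FPKM (0.0548 to 0.543). The lowest uptake carrier, Slc1a1, stood 2.13 times above Slc1a4 (1.78 to 2.56).

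Of the enzymes, Glul was the highest of all 9 genes at 617 FPKM (608 to 627; ENSRNOG00000049560, chromosome 13, 76294458 to 76303626; an implied 17268 fragments). Glud1 was at 35.4 FPKM (32.3 to 38.5; ENSRNOG00000010222, chromosome 16, 8980461 to 9014001; an implied 518 fragments). The ratio of Glul to Glud1 was 17.4 (15.97 to 19.0). Glul stood 1.40 times above Slc17a7 (1.37 to 1.44) and 10.6 times above Slc1a3 (10.1 to 11.1), which is also a gene of Müller glia. Among the Müller glia markers, it exceeded Dkk3, a secreted protein gene, 1.94-fold (1.89 to 1.99) and Rlbp1, the retinaldehyde-binding protein of Müller glia and pigment epithelium, 5.39-fold (5.19 to 5.60).

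By role, the enzymes summed to 653 FPKM (643 to 663), the loaders to 459 FPKM (451 to 468) and the uptake carriers to 147 FPKM (142 to 151). The brackets of these sums are not the authors' bounds. They were computed as 2 standard errors to each side, under the reading of the bounds given above. These sums are 51.9%, 36.5% and 11.6% of the members' total. The loaders' sum was 3.13 times that of the uptake carriers (3.02 to 3.25), and the enzymes' sum 1.42 times that of the loaders (1.39 to 1.45). Both larger sums rest on 1 gene each, since Glul supplied 94.6% of the enzymes' and Slc17a7 95.7% of the loaders'. By medians the order of the last 2 roles was the reverse, at 38.7 FPKM for the uptake carriers and 18.9 FPKM for the loaders.

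**Figure D2:**
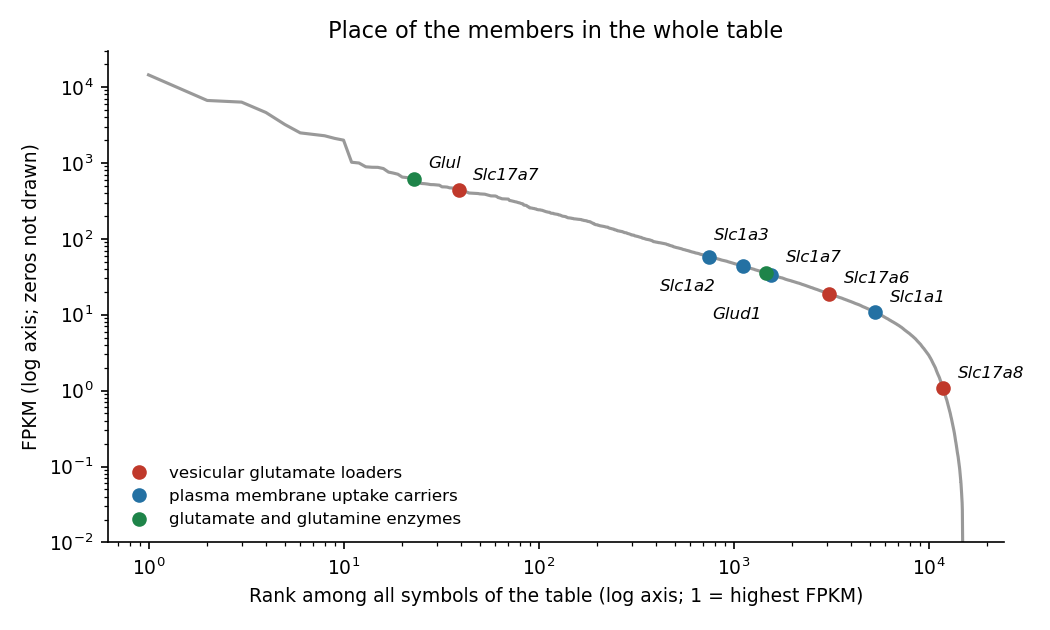
FPKM of every symbol above 0 against its rank, both on log axes (grey line), with the 9 genes as coloured points. Glul is at rank 23 and Slc17a7 at rank 39 of 19623, the next member, Slc1a3, at rank 751, and Slc17a8 at rank 11866.

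Against the whole table, Glul was the 23rd highest symbol and Slc17a7 the 39th. Slc1a3 ranked 751, Slc1a2 1116, Glud1 1466 and Slc1a7 1560, so these 4 lay above at least 92.05% of symbols. Slc17a6 ranked 3101 (percentile 84.2) and Slc1a1 5322 (percentile 72.9). Slc17a8, at rank 11866 and percentile 39.5, was the only member below the median symbol.

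The glutamate and glutamine pathway around the members was read from gene lists. Each count of list genes at 1 FPKM is to be read beside the share of all symbols given above. Of 10 glutamine transporters, 7 reached 1 FPKM and 2 (Slc6a14 and Slc6a19, carriers of epithelia) were listed at 0; the list median was 9.21 FPKM, or 17.8 FPKM over the 7. The highest was Slc38a3, the system N carrier through which glia release glutamine, at 120 FPKM (116 to 124). It was followed by Slc38a1, a system A carrier of neurons, at 32.8 FPKM (30.4 to 35.1). The ratio between them was 3.65 (3.38 to 3.95), and Glul stood 5.15 times above Slc38a3 (4.96 to 5.35).

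The transaminases and mitochondrial glutamate carriers had a list median of 26.9 FPKM, and 11 of the 13 passed 1 FPKM. Bcat1, the cytosolic branched-chain aminotransferase, which forms glutamate from branched-chain amino acids, led at 217 FPKM (211 to 223). Its mitochondrial relative Bcat2, also picked once its level was known, had 4.03 FPKM (3.04 to 5.02), so Bcat1 stood 53.9 times above it (42.3 to 68.6). Got1, the cytosolic aspartate aminotransferase, was at 109 FPKM (104 to 113). Both Bcat1 and Got1 exceeded the member Glud1, 6.12-fold (5.60 to 6.70) and 3.07-fold (2.79 to 3.38). Got2, the mitochondrial aspartate aminotransferase, was picked once its level was known. It was at 75.2 FPKM (71.8 to 78.6) and exceeded Glud1 2.12-fold (1.93 to 2.34). The cystine-glutamate exchanger was uneven, with its shared heavy chain Slc3a2 at 70.0 FPKM (66.3 to 73.6) and its specific light chain Slc7a11 at 3.94 FPKM (3.56 to 4.32).

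Inhibitory counterparts gave a scale for the loaders. Slc32a1 encodes VIAAT, which loads GABA and glycine into vesicles, and was at 20.8 FPKM (19.0 to 22.6), a gene picked once its level was known. Slc17a7 stood 21.1 times above it (19.4 to 23.0), while Slc17a6 and Slc32a1 could not be told apart, with a ratio of 0.907 (0.816 to 1.01). In the list of GABA and glycine genes 8 of 9 passed 1 FPKM and the list median was 18.4 FPKM. The highest were Gad1, for a GABA-synthesizing enzyme, at 50.8 FPKM (48.5 to 53.2) and the glycine transporter gene Slc6a9 at 42.2 FPKM (40.0 to 44.3). Slc17a7 stood 8.65 times above Gad1 (8.24 to 9.08).

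The proton pump that powers vesicular loading was read from 23 subunit and accessory genes, of which 19 passed 1 FPKM; the list median was 54.6 FPKM. Its highest genes were Atp6v0e2 at 169 FPKM (163 to 175) and Atp6v0c, for the proton-binding ring subunit, at 146 FPKM (139 to 153). Slc17a7 exceeded Atp6v0e2 2.60-fold (2.50 to 2.71). The pump also serves lysosomes and other vesicles. Among 6 genes for binding partners of the transporters, all were above 1 FPKM. Sh3gl2, a gene for endophilin, a protein family that binds VGLUT1, was at 95.4 FPKM (90.3 to 101) and Arl6ip5, whose product binds EAAC1, at 41.1 FPKM (37.8 to 44.4). The other 4 were lower, with Sh3gl1 at 11.1 FPKM, Slc9a3r1 at 9.28 FPKM, Sh3gl3 at 4.83 FPKM and Ajuba at 1.52 FPKM.

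**Figure D3:**
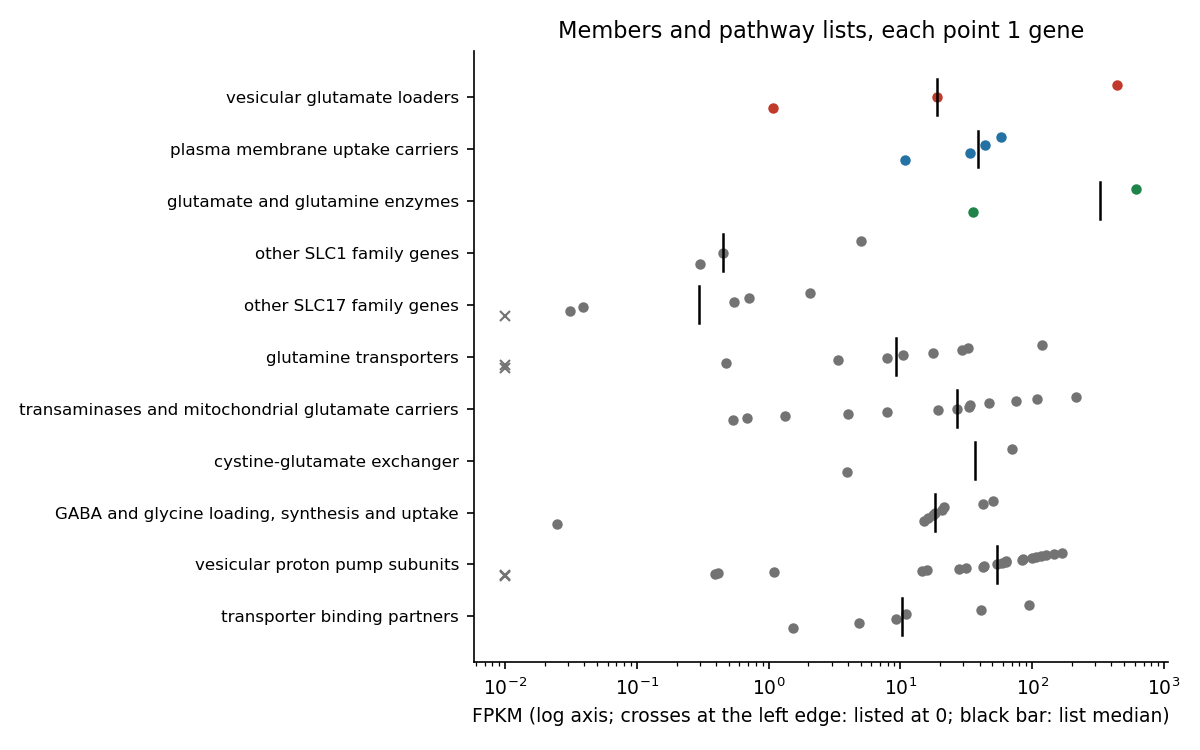
FPKM on a log axis for the members (coloured) and the pathway lists (grey), 1 point per gene; crosses are genes listed at 0 and the black bar is the list median. The other SLC1 and SLC17 genes lie below 5.1 FPKM, and Bcat1 is the only pathway gene outside the members above 200 FPKM.

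The members also differed in how many implied fragments stood behind 1 FPKM. This number follows the length that the authors' program assigned to a gene if the bounds are counting error, and is lowered by bounds that are wider than that; the one was not tested against the other. Glul had 28.0 implied fragments per FPKM and Slc17a7 26.5, whereas Slc1a2 had 18.5 and Glud1 14.6, and Slc17a6 had 46.4. Counted by fragments, Slc17a6 (875) stood above Slc1a2 (809) and Glud1 (518), the reverse of their FPKM order. Of the 36 pairs, 3 whose FPKM interval excluded 1 turned by fragments: Slc1a2 to Slc1a7 (0.781), Slc1a2 to Slc17a6 (0.925) and Glud1 to Slc17a6 (0.592). For Glud1 and Slc1a7, the neighbours that FPKM did not separate, the ratio by fragments was 0.5004. Other ratios above also moved by more than 1.5 times on this scale. Between members they were Glul to Glud1 (33.3), Slc17a7 to Slc17a6 (13.3) and Slc1a3 to Slc1a2 (2.65). With other genes they were Slc1a1 to Slc1a4 (1.35), Bcat1 to Bcat2 (91.5), Bcat1 to Glud1 (11.7), Got2 to Glud1 (3.85), Slc17a6 to Slc32a1 (1.57) and Slc17a7 to Atp6v0e2 (3.99). The first place of Glul and the wide lead of Slc17a7 among the loaders held on both scales. Which transcript models lie behind each row is not given in the table.

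**Figure D4:**
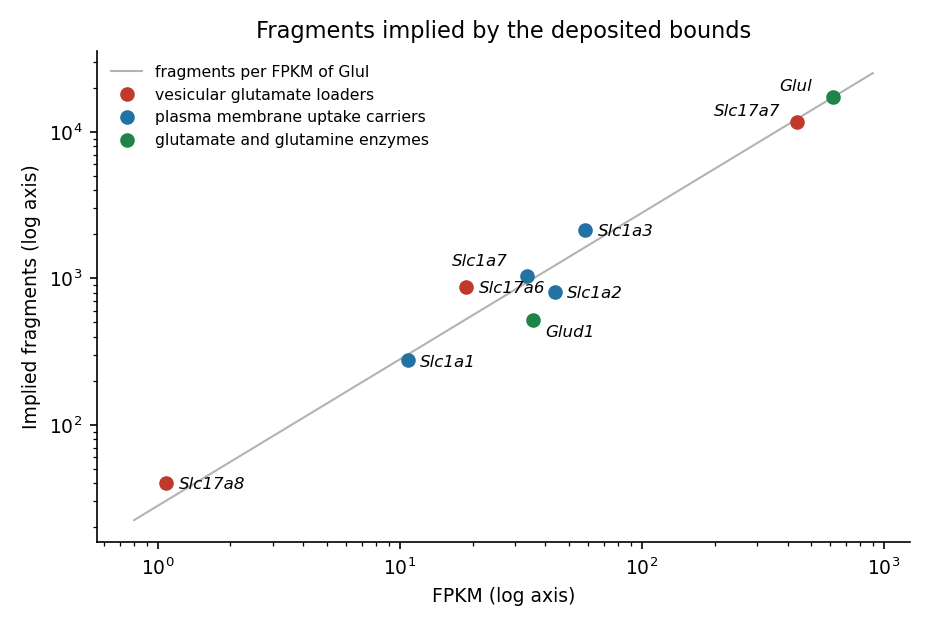
Implied fragments against FPKM for the 9 genes, both on log axes; the grey line has the fragments per FPKM of Glul. Slc1a2 and Glud1 lie below the line and Slc17a6 above it.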

How the data were processed

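The labels describe retinal RNA from 6 rat samples, prepared with the Ion Total RNA-seq Kit per the labels' protocols. The authors deposited 1 gene table of FPKM values with a lower and an upper bound, in the format of Cufflinks per the file headers. Version 2.0.8 of Cufflinks and genome build rn5 come from the submitters' processing notes. Not given in the sources used here were the aligner, the annotation release, the strand setting, the confidence level and the libraries behind the column.

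Analysis used Python 3.11.15, numpy 2.4.6, pandas 2.3.3 and matplotlib 3.10.9. Rows sharing a symbol, ignoring case, were summed. Implied fragments are the square of the value over its standard error, taken as the bounds' width over 4 standard errors; they sum to 6124205 over all rows and 34602 over the members. The calculation was checked on simulated data that assumed counting error alone and bounds at 2 standard errors. That check cannot show whether the deposited bounds are of this kind. The planned limma comparisons between groups needed a value per sample and were not run. Likeness of pattern across samples could not be measured for the same reason. All members are named, and of each pathway list the 2 highest genes and every gene of lists with up to 6, with marker lists given by counts and some items not reported here; the members and lists were chosen with earlier results of these data known. Alternatives covered row handling, symbol case, scale, level minimum and length.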

Additional observations from a re-analysis of the deposited data

How the results depend on the processing

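No paired analysis was possible because the only value column is tied to no sample; leaving out a replicate and another pseudocount were not run for the same reason. Keeping only the highest row per symbol, or exact case, changed no member's level, since each has a single row, so these settings say nothing about stability. The count of 9 members at 1 FPKM or more was 8 at a minimum of 5 or 10 FPKM. Rescaling the table to parts per 1000000, a change of unit, put Glul at 1804, Slc17a7 at 1284, Slc1a3 at 171, Slc1a2 at 128, Glud1 at 103.5, Slc1a7 at 98.4, Slc17a6 at 55.1, Slc1a1 at 31.6 and Slc17a8 at 3.17.

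With implied fragments in place of FPKM, which drops the division by length, 3 of the 36 ratios between members turned: Slc1a2 to Slc1a7 at 0.781, Slc1a2 to Slc17a6 at 0.925 and Glud1 to Slc17a6 at 0.592. For Glud1 to Slc1a7, whose FPKM ratio has an interval that includes 1, the value was 0.5004. The ratios of Slc17a7 became 13.3 to Slc17a6, 295 to Slc17a8 and 5.42 to Slc1a3. Those of Slc1a3 became 2.65 to Slc1a2, 2.07 to Slc1a7 and 7.81 to Slc1a1. Slc1a2 became 2.94 times Slc1a1 and 1.56 times Glud1, and Slc1a7 became 3.77 times Slc1a1 and 1.18 times Slc17a6. Glul became 33.3 times Glud1 and 1.48 times Slc17a7, Slc17a6 became 3.18 times Slc1a1, and Slc1a1 became 6.96 times Slc17a8. The uptake carriers' share of the members' sum moved to 12.3%. Among symbols at 1 FPKM or more the percentile of Slc17a8 fell to 0.894. Of 19 list medians, 5 moved by more than 1.5 times when genes under 1 FPKM were left out: glutamine transporters to 17.8 FPKM, other SLC1 genes to 5.06, other SLC17 genes to 2.06, astrocyte markers to 8.45 and pigment epithelium markers to 86.5. None did with exact case. Depth limits Slc17a8 most, at an implied 40 fragments.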

Other observations

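Solute carriers as a whole were read after the members' values were known: every symbol made of Slc, a number, a letter and a number, with nothing after it, 351 in all, of which 210 (59.8%) reached 1 FPKM, with a median of 2.04 FPKM. Slc17a7 was the highest of the 351. It stood above Slc24a1, the sodium-calcium-potassium exchanger of rod outer segments, at 251 FPKM (244 to 257), Slc25a4, a mitochondrial ADP/ATP carrier, at 212 FPKM (204 to 220), and the taurine transporter gene Slc6a6 at 161 FPKM (157 to 166). The glutamine carrier Slc38a3 ranked 5, and these 5 were the only ones at 100 FPKM or more. Slc17a7 alone held 11.4% of the summed FPKM of these symbols, and the 7 members among them held 15.7%. Slc1a3 ranked 13 among them, Slc1a2 21, Slc1a7 27, Slc17a6 40 and Slc1a1 69, so 6 of the 7 were among the 87 highest, while Slc17a8 ranked 206.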
